A study of Drosophila melanogaster with 29 samples.

Results

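A small set of genes had a mean transcript level in 1 laboratory strain of Drosophila melanogaster that lay apart from the means of 4 other strains, in males and in females alike. The probe sets described here were chosen for that pattern. In each of them the mean log2 value of 1 strain lay at least 1.5 above, or at least 1.5 below, the means of all 4 other strains in females and again in males, with the same strain and the same direction in both sexes. Control probe sets of the array were left out, and so were genes whose symbols start with Cyp, Gst, Cpr or Obp. The rule was met by 51 of 13966 probe sets (0.365%), which are called the members below. A further 7 probe sets met the same gap and were left out by symbol.

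Affymetrix Drosophila arrays were hybridised with total RNA from adults of 5 strains, taken 0 to 6 h after eclosion and reared at 25°C. The females were virgins. The 10 groups of a strain and a sex held 3 arrays each, apart from Hikone females with 2, because a replicate of that group was discarded by the study, so that 14 arrays of females and 15 of males were compared. Glasgow and Cambridge are 2 stocks of Oregon-R that were established in different places. France is the strain Kerbiniou, Antigua comes from the Caribbean and Hikone from Japan, although the label of Hikone also names it an Oregon R. According to the methods of the study, all 5 strains had been maintained at the same department in Cambridge. The labels name no engineered allele and no treatment for any strain. Each replicate was a separate collection of flies with its own RNA extraction, but nothing says that the flies came from separate cultures, so the spread between replicates may leave out part of the biological variation. All arrays of a strain have consecutive numbers in their titles, in blocks by sex within the strain. The labels do not say whether these numbers are an order of processing. If they are, that order cannot be told apart from strain, or from sex within a strain.

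Correlations between replicate arrays over all probe sets ranged from 0.962 to 0.996, and 2 arrays stood apart from their groups. In Cambridge female replicate 3, the mean of the 8 testis markers (all 8 measured) was 3.79, compared with 2.43 to 2.84 in the other 13 female arrays. In Cambridge male replicate 1, the mean of the ovary and eggshell markers (9 of 10 measured) was 8.90, compared with 2.97 to 3.96 in the other 14 male arrays. The same mean was 11.11 to 12.46 over all 14 female arrays. The seminal fluid markers separated the sexes in every array, at 3.28 to 3.91 in females and 10.24 to 11.73 in males. The main counts and gaps that rest on either array are given with and without it, and the part of these marker differences in them was not tested. Without Cambridge female replicate 3, the rule found 70 probe sets, all 51 members among them, and without Cambridge male replicate 1 it found 49, having lost l(2)34Fc and CG7542.

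As background, a newly eclosed fly still has to harden and darken its cuticle, for which tyrosine hydroxylase makes the precursor of dopamine and other tanning agents, while chitin deacetylases alter the chitin fibres that cuticle proteins bind. At the same age the adult midgut takes over digestion. Its cells secrete trypsins and Jonah proteases, which are serine proteases that cut dietary protein, maltases, which release glucose from sugars, and the proteins of the peritrophic matrix, a lining that separates food from the gut wall. Both programmes change quickly around eclosion. The age of the flies is the one stated by the study and was not tested with the arrays. The ovary and eggshell markers were high in every female array, at 11.11 to 12.46. Whether such levels are usual in virgin females of the stated age was not tested.

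The members fell into 7 groups of a strain and a direction. France was the high strain for 21 probe sets and the low strain for 3, Hikone was high for 13 and low for 1, Cambridge was low for 8, Antigua was high for 4 and Glasgow was low for 1. In all, 38 members were high and 13 were low. The smaller of the gaps in the 2 sexes, which decided membership, had a median of 2.04 and ranged from 1.503 to 3.66 on the log2 scale. The 51 probe sets held 45 different genes with a single symbol, 1 probe set that matches a gene pair and 4 with no symbol. The members nearest to the threshold were l(2)34Fc, with a smaller gap of 1.503, and CG14036, with 1.507, while CG8997 (1.497, Cambridge low) and CG14495 (1.49, France high) lay just outside. Because these values chose the members, they are described without a test.

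In 36 of the 51 members, every array of the strain set apart lay beyond every array of the other strains in both sexes. Among all probe sets 1003 of 13966 (7.18%) had this property for some strain, and since the rule used the same values nothing is read from the comparison. It held for 17 of 21 France high members, 9 of 13 Hikone high members, all 4 Antigua high members and 1 of 8 Cambridge low members, as well as for the 5 remaining low members. In Cambridge females the SD over replicates was above 1 in 7 of the 8 genes.

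**Figure D1:**
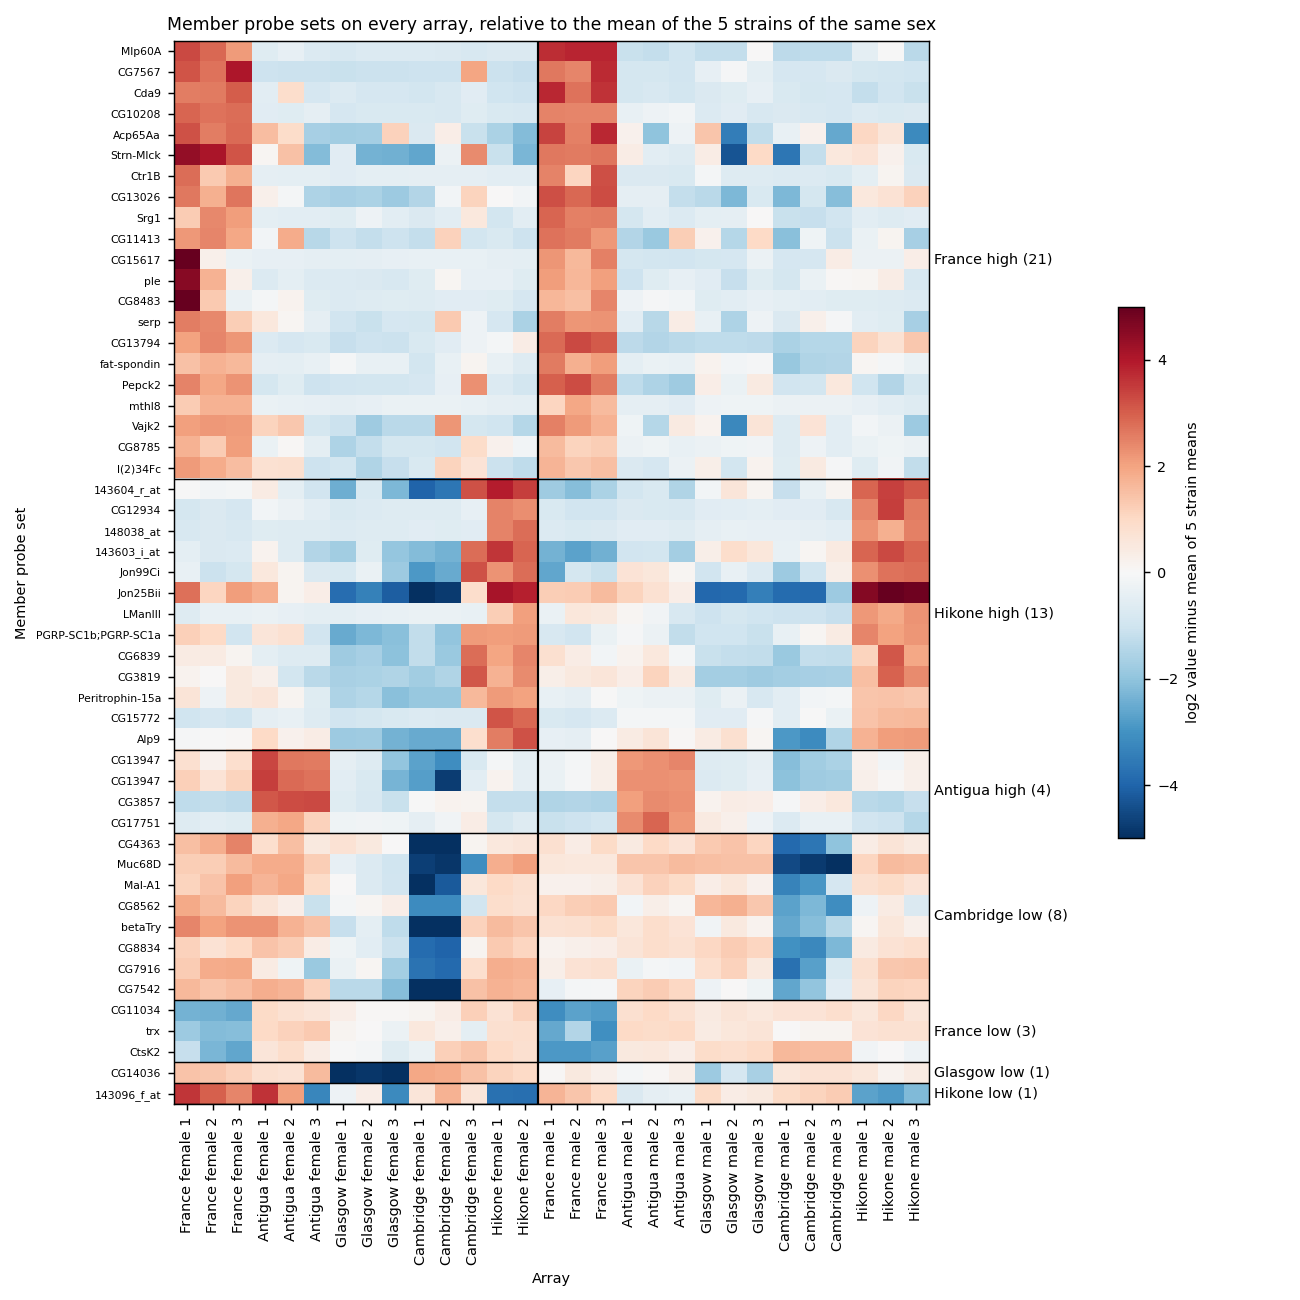
Each line is 1 of the 51 member probe sets and each column 1 of the 29 arrays, with females left and males right of the vertical line, and colour gives the log2 value minus the mean of the 5 strain means of the same sex (red above, blue below, with values beyond 5 on either side drawn in the end colour). The block of 21 France high probe sets is red in the France arrays of both sexes, apart from CG15617 and CG8483 in France female replicate 3, and the 8 Cambridge low probe sets are blue in Cambridge arrays, apart from most of them in female replicate 3.

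France was the high strain for the largest group, whose 21 probe sets cover varied roles. By a grouping made after the values were seen, which was not tested, 5 of the 21 act in the cuticle or on chitin (Cda9, serp, Acp65Aa, Vajk2 and ple) and 2 belong to muscle (Mlp60A and Strn-Mlck). The median gap between France and the nearest other strain was 2.15 in females and 2.51 in males. France was an extreme strain in many probe sets, with the highest mean in both sexes in 8.48% and the lowest in 38.7% of all probe sets, and its median difference from the mean of the other strains over all probe sets was -0.12 in females and -0.13 in males.

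Mlp60A, which encodes a LIM protein of muscle, gave the largest smaller gap of this group. It read 7.54, 7.12 and 6.34 in the 3 France female arrays, whereas the 11 other female arrays ran from 3.42 to 3.82 with a median of 3.53. The 3 France male arrays read 8.48, 8.59 and 8.61, and the 12 other male arrays 3.42 to 4.80 with a median of 3.61. France thus stood clear of every other array in both sexes, with a gap of 3.35 in females and 4.39 in males to the nearest strain mean. The other strains were near the floor of the array in this gene, where values are compressed, so no fold is given. Strn-Mlck encodes stretchin and a myosin light chain kinase of muscle. Its France female arrays read 8.61, 8.27 and 7.35 against 1.59 to 6.56 elsewhere (median 3.07), and its France male arrays 9.51, 9.47 and 9.55 against 2.56 to 7.89 (median 6.73). The other strains were spread over a wide range in this gene, but none of their arrays reached France. The array carries 2 further probe sets for Strn-Mlck, and these were not high in France, with gaps of -0.32 and -0.21 in females and -0.47 and -0.31 in males, so the pattern belonged to 1 of 3 probe sets of the gene.

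Among the cuticle genes, Cda9, a chitin deacetylase, read 6.48, 6.51 and 6.95 in France females and 7.56, 6.50 and 7.39 in France males. In the other strains it ran from 2.88 to 4.81 in females (median 3.08) and from 2.59 to 3.38 in males (median 2.93), without overlap. A second chitin deacetylase, serp, read 6.77, 6.61 and 5.45 in France females, and 7.84, 7.50 and 7.52 in France males. Its other female arrays reached 5.51, in Cambridge replicate 2, and overlapped France replicate 3, whereas the other male arrays ended at 5.65. A second serp probe set on the array showed no France gap (-0.15 in females and 0.11 in males). The adjacent gene verm, also a chitin deacetylase, was not a member but was highest in France in both sexes, at 7.49 ± 0.49 (SD, n = 3) in females and 8.64 ± 0.15 in males, 0.98 and 1.25 above the nearest strain.

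Acp65Aa, an adult cuticle protein, was 8.44, 7.80 and 8.09 in France females and 10.43, 9.58 and 10.84 in France males. Other females ranged from 3.09 to 6.81 and other males from 3.61 to 8.45, so that no array overlapped France although the other arrays of a sex were spread over more than 3 log2 units. For Vajk2, another cuticle protein, the France male arrays were at 11.47, 11.09 and 10.71 against 5.74 to 9.65 in other males. In females its France arrays lay at 9.26 to 9.36, and Cambridge female replicate 2 passed them at 9.42. The member probe set of Vajk2 is one that Affymetrix marks as shared by more than 1 transcript, while 2 further probe sets of the gene had smaller gaps, of 0.76 to 0.99 in females and 1.83 to 1.87 in males. The smaller gap of the member was 0.89 without Antigua female replicate 3 and 1.45 without Cambridge female replicate 1. The neighbouring Vajk3 was highest in France as well, by 1.17 in females and 1.33 in males.

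For 3 France high members the female difference rested on a single array. The gene ple, which encodes the tyrosine hydroxylase of dopamine synthesis and cuticle tanning, read 8.83, 6.03 and 4.55 in the 3 France female arrays, against 3.50 to 4.39 in other females. CG8483 read 9.25, 5.18 and 3.52, and CG15617 read 8.50, 3.60 and 3.00. Replicate 1 was the highest by far in all 3 genes, and the lowest France array lay within or just above the range of the other strains. Without France female replicate 1, the female gap was 1.30 for ple, 0.67 for CG8483 and 0.33 for CG15617, and these 3 genes and l(2)34Fc (1.37) were no longer members. In males the same 3 genes did not depend on 1 array, with ple at 6.99, 6.53 and 6.93 in France and at 3.73 to 5.25 in the other strains.

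The other France high members cover varied roles, and in 4 of them (Ctr1B, CG10208, mthl8 and Srg1) the 4 other strain means lay within 1 log2 unit of each other in both sexes. A second mthl8 probe set on the array had a France gap of only 0.06 in females and 0.90 in males. Pepck2, a phosphoenolpyruvate carboxykinase of glucose synthesis, was 6.59, 6.06 and 6.39 in France females and 7.63, 7.89 and 7.25 in France males, whereas other strains had medians of 3.25 and 3.70. Cambridge female replicate 3 alone reached the France level, at 6.40, and without Cambridge female replicate 1 the smaller gap of Pepck2 was 1.30. Ctr1B, a copper transporter, was 4.44 ± 0.77 (SD, n = 3) in France females and 4.95 ± 1.10 in males, above strain means of at most 2.01 and 2.34. CG10208, whose role is not annotated in the files, was among the tightest, with France female arrays at 7.35, 7.17 and 7.23, male arrays at 6.93, 6.87 and 6.87, and no array of another strain above 4.32. CG7567 read 7.07, 6.65 and 7.98 in France females and 6.38, 6.19 and 7.49 in France males against medians of 2.88 and 2.89 elsewhere. Only Cambridge female replicate 3 rose toward France in CG7567, at 5.91. The smaller gaps of the remaining members of the group (fat-spondin, mthl8, CG13026, CG11413, CG13794, CG8785, Srg1 and l(2)34Fc) ran from 1.503 to 2.32. Of these, CG11413 fell below the threshold without Antigua female replicate 3 (1.34). CG8785 did so without any 1 of France male replicate 1, France female replicate 3, Glasgow male replicate 1 or Hikone female replicate 2 (1.40 to 1.498). For l(2)34Fc the gap was 0.96 without Cambridge female replicate 1, 1.08 without Antigua female replicate 3, 1.26 without Glasgow male replicate 2, 1.31 without Cambridge male replicate 1 and 1.37 to 1.49 without France male replicate 1 or France female replicates 1 or 2. The haemocyte markers (6 of 6 measured) were also higher in France males, with array means of 6.36 to 7.05 against 5.28 to 5.82 in other males, but not clear of other females (6.15 to 6.29 against 5.33 to 6.23), and their part in the France values was not tested. In RNA pooled over many cells, a difference in the number of cells of a type and a difference in RNA per cell cannot be told apart.

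**Figure D2:**
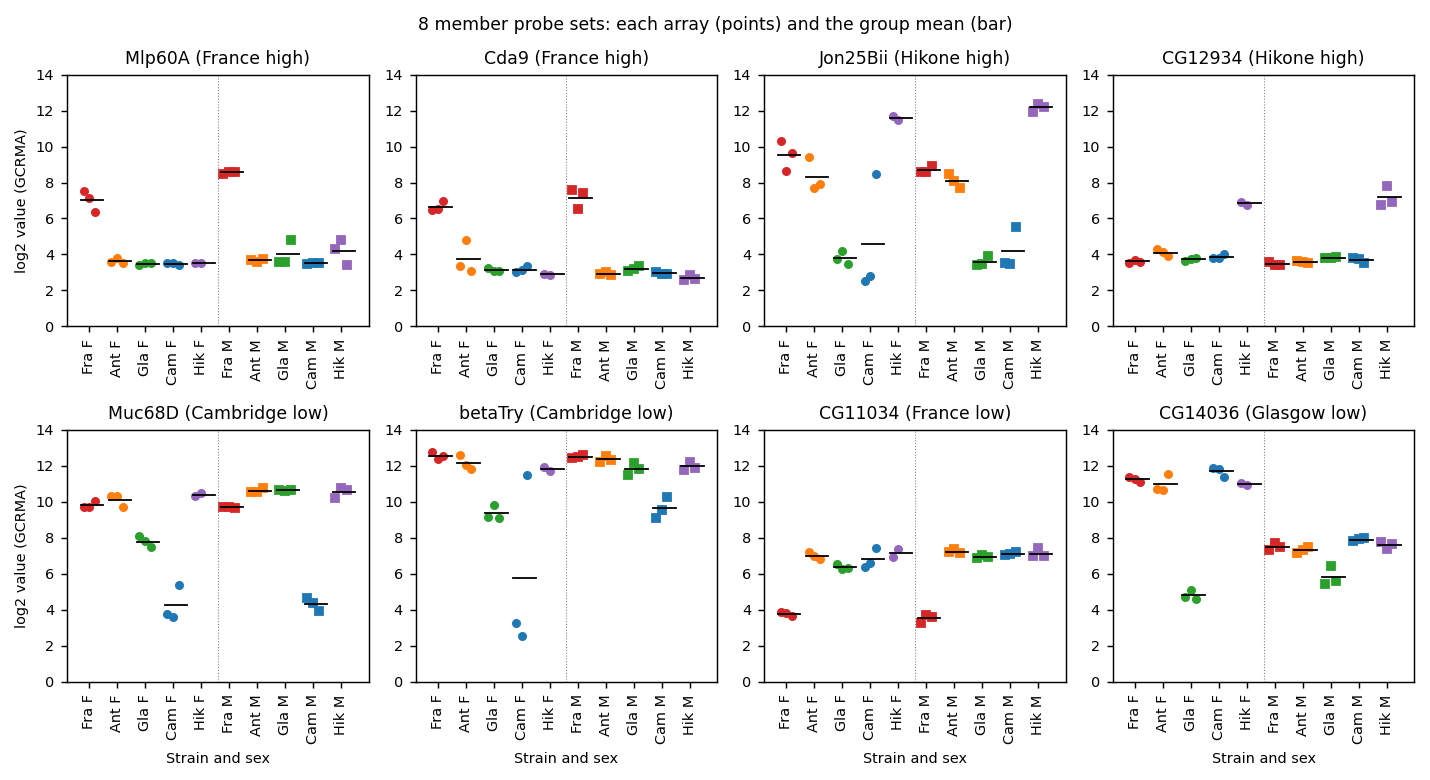
Points are the log2 values of single arrays and bars the group means for 8 members, with females (F, circles) and males (M, squares) of France, Antigua, Glasgow, Cambridge and Hikone on the horizontal axis. In each panel the strain named in the title lies apart in both sexes, with the exception of Cambridge female replicate 3, which read 11.49 for betaTry beside 3.24 and 2.51 in replicates 1 and 2.

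Hikone was high for 13 members, of which 2 (Jon25Bii and Jon99Ci) stand in the list of gut serine proteases described below. Of the named genes, Jon25Bii and Jon99Ci are Jonah serine proteases, Peritrophin-15a belongs to the peritrophic matrix, Alp9 is an alkaline phosphatase, LManIII is a lysosomal alpha-mannosidase that trims sugars from glycoproteins, and PGRP-SC1 enzymes degrade bacterial peptidoglycan. The median gap to the nearest strain was 2.34 in females and 2.14 in males. In 10 of the 13 the gap was larger in females.

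Jon25Bii read 11.71 and 11.48 in the 2 Hikone female arrays and 11.93, 12.37 and 12.22 in the 3 male arrays. France and Antigua were intermediate, with means of 9.55 ± 0.85 and 8.33 ± 0.92 (SD, n = 3) in females and 8.70 ± 0.19 and 8.09 ± 0.40 in males, whereas Glasgow was at 3.81 ± 0.37 in females and 3.61 ± 0.29 in males. The Cambridge female arrays read 2.55, 2.80 and 8.47, so that replicate 3 lay at the level of Antigua and the mean of 4.61 ± 3.35 was 2.68 without it, and Cambridge males were at 4.18 ± 1.18. The nearest strain was thus 4.1-fold lower in females and 11.1-fold lower in males, and France and Antigua did not differ beyond their spread in females. Jon99Ci read 8.45 and 9.0 in Hikone females and 10.74, 11.18 and 11.25 in Hikone males. All other male arrays lay at 9.14 or less, but Cambridge female replicate 3, at 9.39, was above both Hikone females, and the remaining female strains had means of no more than 6.18 with that array included.

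In CG12934, CG15772 and LManIII, Hikone stood clear of strains that differed little from each other in females. CG12934 read 6.92 and 6.77 in Hikone females and 6.77, 7.81 and 6.93 in males, while the other arrays stayed between 3.55 and 4.28 in females and between 3.39 and 3.84 in males. CG15772 was likewise 8.35 and 8.07 in females and 6.75, 6.91 and 6.93 in males, against at most 4.83 and 5.32 elsewhere, so its gap was 3.50 in females and 1.64 in males. LManIII lay at 5.72 and 6.55 in Hikone females and at 7.25, 6.98 and 7.33 in Hikone males, and no other array passed 4.17 in females or 5.68 in males. No array of another strain reached the Hikone values of the same sex in these 3 genes.

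The pair CG6839 and CG3819 lie within 2 genes of each other on chromosome arm 3L, the only case of neighbouring members in the same group. CG6839 read 6.92 and 7.40 in Hikone females and 6.04, 8.02 and 6.86 in Hikone males, and CG3819 read 7.98 and 8.58, and 7.97, 9.43 and 8.84. Both were above all other male arrays, and in females both were exceeded by Cambridge female replicate 3, at 7.75 and 9.35. Male replicate 2 was the highest Hikone male in both genes, and without it the smaller gap was 1.17 for CG6839 and 1.33 for CG3819, below the threshold. Either gene also dropped below it without Cambridge female replicate 2 (1.42 and 1.36), CG6839 without France male replicate 3 (1.44) and CG3819 without Cambridge female replicate 1 (1.25). The probe set shared by PGRP-SC1b and PGRP-SC1a, which cannot separate the 2 genes, read 8.49 and 8.54 in Hikone females and 7.81, 7.40 and 7.58 in Hikone males, with Cambridge female replicate 3 at the same 8.54. Peritrophin-15a (10.77 ± 0.07, n = 2, in females and 10.05 ± 0.04, n = 3, in males) and Alp9 (8.06 ± 0.45 and 7.83 ± 0.21) were above every array of the other strains. The smaller gap of the PGRP-SC1 probe set was 1.03 without France female replicate 3 and 1.42 without Antigua female replicate 3, and that of Alp9 was 1.40 to 1.49 without any 1 of Antigua, Glasgow or Hikone male replicates 3. The 3 members of the group with no symbol, 143604_r_at, 143603_i_at and 148038_at, had smaller gaps of 2.95, 2.48 and 2.60. The first 2 have consecutive numbers, and whether they read the same transcript was not tested. In both, Cambridge female replicate 3 came near the lowest Hikone female, at 10.86 against 11.13 and at 12.01 against 12.13. The mean of the 13 members, each relative to the mean of the 5 strains, was 1.42 in Cambridge female replicate 3, compared with at most 0.26 in the 11 other female arrays outside Hikone and 2.59 and 2.71 in the Hikone females. Leaving that array out kept all 13 members.

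Cambridge was low for 8 genes. Of these, betaTry and Mal-A1 stand in the lists of digestive genes described below, and a role in digestion or the gut lining was given to 5 by a grouping made after the values were seen, which was not tested. Mal-A1 is a maltase, betaTry a trypsin and CG7542 a trypsin-like serine protease, CG8562 a metallocarboxypeptidase that removes amino acids from the ends of peptides, and Muc68D a mucin. For CG4363, CG8834 and CG7916 no role is given here. The median gap to the next lowest strain was 2.62 in females and 2.56 in males, and in females it was 3.98 without Cambridge female replicate 3.

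The Cambridge female values came in 2 kinds. The betaTry probe set read 3.24, 2.51 and 11.49 in the 3 Cambridge female arrays, CG4363 read 2.97, 2.18 and 8.54, and CG7542 read 2.65, 2.01 and 9.25. In other females betaTry ran from 9.07 to 12.76, CG4363 from 8.44 to 10.89 and CG7542 from 5.68 to 9.62. Replicates 1 and 2 were hence below every other female array in these genes, whereas replicate 3 lay inside the range of the other strains. Over the 8 genes, the mean relative to the 5 strains was -4.95 and -4.99 in replicates 1 and 2 and 0.02 in replicate 3. Cambridge males were more alike, at -3.29, -2.95 and -2.03, all below the 0.43 to 1.02 of the 12 other male arrays. In males betaTry read 9.10, 9.54 and 10.27 in Cambridge against 11.47 to 12.61 in the other strains, and Mal-A1 8.09, 8.50 and 10.57 against 11.64 to 12.58.

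Muc68D differed from the 7 others in that every Cambridge array lay below every other array in both sexes. It read 3.77, 3.61 and 5.36 in Cambridge females, compared with 7.47 to 10.51 in other females, and 4.64, 4.37 and 3.91 in Cambridge males, compared with 9.67 to 10.75 in other males. No other array came within 2 log2 units of any Cambridge array of the same sex. The Cambridge mean lay 3.53 below the nearest strain in females and 5.39 below it in males. The Cambridge values of Muc68D were near the floor of the array, where values are compressed, so no fold is given. In females the nearest strain was Glasgow, at 7.78 ± 0.30 (SD, n = 3), whereas the remaining 3 strains were at 9.82 or more. Glasgow, the other Oregon-R stock, was the nearest strain in females for 7 of the 8 genes and in males for 1.

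Membership of this group was sensitive to single arrays. CG4363, Muc68D, CG8562 and betaTry were kept whichever array was left out. Mal-A1 was lost without Cambridge female replicate 1, with a smaller gap of 1.28, and CG8834 without Cambridge female replicate 1 (1.34) or 2 (1.24). For CG7916 the gap was 0.88 and 0.79 without these 2 arrays, and 1.22 to 1.45 without Antigua female replicate 1 or Glasgow female replicates 1 or 2. For CG7542 it was 0.57 and 0.25 without the same 2 Cambridge arrays, 1.08 and 1.40 without Cambridge male replicates 1 and 2, and 1.42 to 1.48 without Glasgow female replicates 1 or 2, Glasgow male replicate 2 or France male replicates 2 or 3. The group held 4 probe sets without Cambridge female replicate 1 and 25 without replicate 3. Among those gained were lambdaTry (2.60), a trypsin, LManVI (3.08), a lysosomal alpha-mannosidase, and the alkaline phosphatase Alp10 (2.53).

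**Figure D3:**
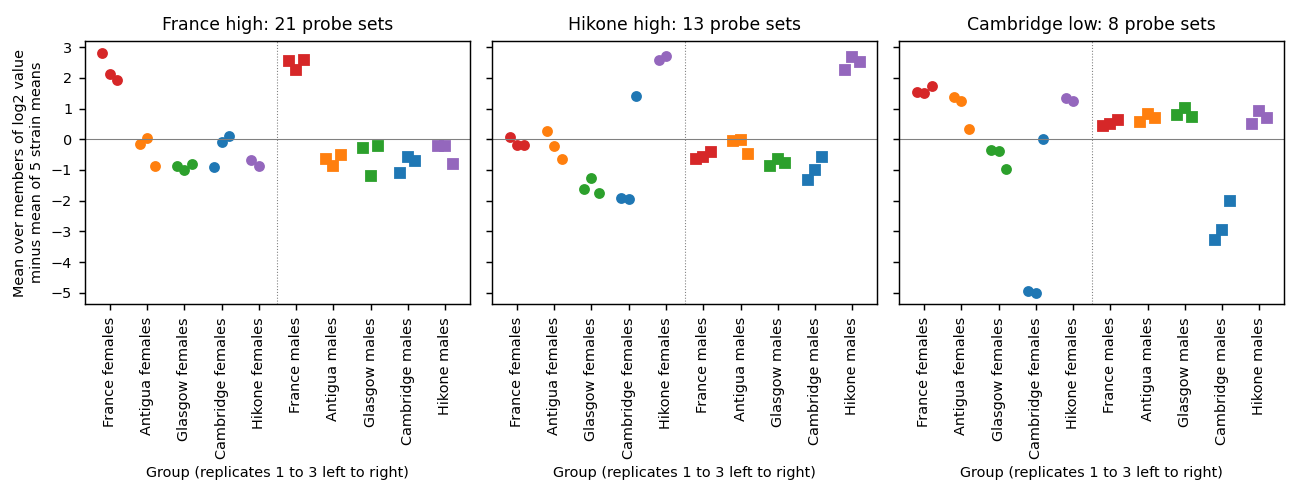
Each point is 1 array and gives the mean over the 21 France high, 13 Hikone high or 8 Cambridge low probe sets of the log2 value minus the mean of the 5 strain means of the same sex, for females on the left and males on the right of each panel. Cambridge female replicate 3 is the high Cambridge point at 1.42 in the Hikone panel and at 0.02 in the Cambridge panel.

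Antigua was high for 3 genes, read by 4 probe sets, and all 4 were clear of every other array in both sexes. CG13947 was read by 2 probe sets, both members, whose suffixes mark sets with fewer or less strictly chosen probes. The first read 11.80, 11.13 and 11.07 in Antigua females against 5.38 to 9.33 elsewhere, and 12.17, 12.28 and 12.43 in Antigua males against 7.89 to 10.30. The second gave 13.14, 12.54 and 12.41 in females and 13.61, 13.64 and 13.59 in males. France in females and Hikone in males came next, 4.0 to 4.7-fold lower, and Cambridge was lowest. CG3857, on the X chromosome, read 10.24, 10.39 and 10.42 in Antigua females and 10.51, 10.82 and 10.74 in Antigua males. Its other strain means lay between 5.84 and 7.21 in females, but Glasgow and Cambridge males were at 8.76 ± 0.09 and 8.75 ± 0.29 (SD, n = 3), so that the gap was 3.14 in females and 1.93 in males. CG17751 read 6.43, 6.59 and 5.78 in females and 7.44, 7.96 and 7.25 in males, above 5.02 and 5.50 in all other arrays. The adjacent CG17752 was highest in Antigua too, by 0.48 in females and 1.05 in males. No member of this group was lost by leaving out any 1 array.

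Low values in a single strain were found for 5 further genes or probe sets, and each was below every array of the other strains in both sexes. An array by itself cannot tell a difference in the amount of RNA from a sequence difference under the probes. Which of these applies was not tested, for low or for high members. CG11034 read 3.86, 3.82 and 3.66 in France females and 3.28, 3.71 and 3.58 in France males, whereas other arrays ran from 6.27 to 7.41 and from 6.85 to 7.40. The 4 other strains were nearly equal, with means of 6.37 to 7.16 in females and 6.93 to 7.23 in males. The trx gene, which encodes the histone H3 lysine methyltransferase Trithorax, read 4.74, 4.39 and 4.43 in France females and 3.71, 4.78 and 3.19 in France males against at least 6.05 and 6.29 in other strains. CtsK2, a cathepsin-type cysteine protease, read 4.68, 3.55 and 3.24 in France females against 5.23 to 7.24, and 6.86, 6.88 and 7.04 in France males against 9.50 to 11.37. Without France female replicate 3, the smaller gap of CtsK2 was 1.48.

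CG14036, low in Glasgow, had the most unequal gaps of all members. It read 4.70, 5.08 and 4.61 in Glasgow females, compared with 10.65 to 11.88 in the 11 other female arrays, which is a gap of 6.18. These Glasgow values were near the floor of the array, so no fold is given. In males CG14036 read 5.41, 6.40 and 5.62 in Glasgow, compared with 7.14 to 7.96, a gap of 1.51. Glasgow was thus the only strain without a high female level, and its males were nearer to the males of other strains. The male gap was 1.41 without Antigua male replicate 3, 1.31 without Glasgow male replicate 1 and 1.41 without Glasgow male replicate 3, so membership rested on those arrays while the female gap did not. The probe set 143096_f_at, low in Hikone, has no symbol, and its suffix marks a family of related transcripts. It read 1.82 and 1.78 in Hikone females and 6.65, 6.50 and 7.10 in Hikone males, below other males at 8.62 to 11.03. Other females ran from 2.29 to 9.14 with a wide spread within groups. Antigua females read 9.14, 7.60 and 2.29 and Glasgow females 5.27, 5.87 and 2.34, so that replicate 3 of both groups came near the Hikone females.

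Of 22 lists of genes defined by symbol, those for transposon genes, the mitochondrial genome and the Y chromosome matched no probe set. Members were found in 3 of the other lists, and the counts below are a description. The list of gut serine proteases held 28 measured genes, of which betaTry (Cambridge low), Jon99Ci and Jon25Bii (Hikone high) were members. Cambridge had the lowest mean in both sexes in 12 of the 28, compared with 3.02% of all probe sets, and Hikone had the highest in 14, compared with 2.63%. The median difference between Cambridge and the mean of the other strains was -1.76 in females and -1.18 in males over these 28, and that of Hikone 1.42 and 0.77. The same medians were 1.37 in France females and -1.19 in Glasgow females, so that Hikone and Cambridge were not alone in their direction in that sex, and without Cambridge female replicate 3 the Cambridge female median was -3.00. Over all probe sets the medians were 0.08 and 0.10 for Cambridge and -0.03 and -0.07 for Hikone. The Cambridge count rested on single arrays, being 4 without Cambridge female replicate 2 and 6 without replicate 1. The counts and medians of this list include its 3 members, whose strain and direction the rule had fixed. Some other genes of the list were also lowest in Cambridge or highest in Hikone in both sexes, by less than the gap required. The trypsin lambdaTry, for example, averaged 5.14 in Cambridge females (3.43 without replicate 3) and 5.85 in Cambridge males. It lay 1.37 below the next strain in females, 3.09 without that array, and 2.60 below it in males, and Jon25Bi was 1.22 and 2.15 above the next strain in Hikone.

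The list of sugar digestion held 13 measured genes, with Mal-A1 its member, whose direction the rule had fixed. Cambridge was lowest in both sexes in 6 of the 13 (Mal-A1, Mal-A3, Mal-A4, Mal-A6, Mal-A7 and Mal-A8), compared with 3.02% of all probe sets. This count rested on single arrays, running from 4 to 10 as each was left out, with 10 without Cambridge female replicate 3. In Cambridge males Mal-A3 averaged 3.07 and Mal-A4 2.59, whereas the other strains had means of 6.70 to 7.85 and 6.51 to 7.78. In females the gap to the nearest strain was 0.64 and 0.71. The list of cuticle proteins whose symbols do not start with Cpr held 40 probe sets of 36 genes, most of them near the floor of the array. Acp65Aa was its member, Acp1 was the only other gene that was highest in France in both sexes, and France was lowest in 31 of the 40, compared with 38.7% of all probe sets.

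**Figure D4:**
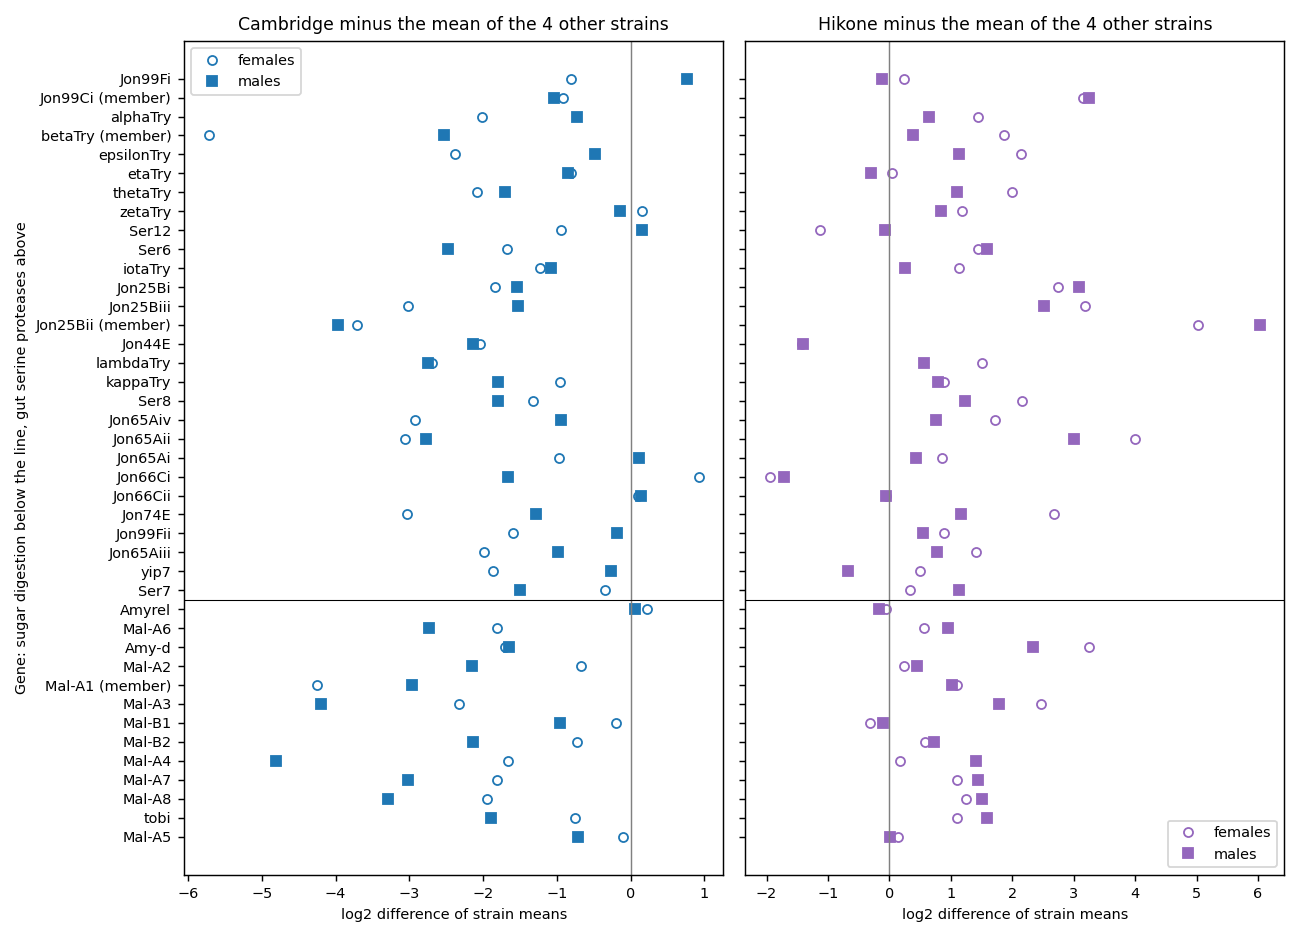
For each gene of the gut serine protease list (above the horizontal line) and of the sugar digestion list (below it), the log2 mean of Cambridge (left) or Hikone (right) minus the mean of the 4 other strain means is given for females (open circles) and males (filled squares). Most genes lie left of 0 in the Cambridge panel and right of 0 in the Hikone panel, with betaTry farthest left among females and Mal-A4 among males in the former and Jon25Bii farthest right in the latter.

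Position along the chromosomes was not used by the rule. Of the 45 member genes with a single symbol, 14 lay on chromosome arm 2R (31.1%, against 20.2% of all measured genes), 11 on 3L, 10 on 2L, 8 on 3R and 2 on the X (4.44%, against 16.3%). For the 2 genes on either side of each member, 148 probe sets were measured besides the pair of members CG6839 and CG3819, whose direction the rule had fixed. Their median shift in the direction of the member was -0.02 in females and -0.04 in males. In 30 of the 148 the same strain was nevertheless the most extreme in the same direction in both sexes. This was 7 of 29 neighbours for Hikone high, beside 2.63% of all probe sets, 8 of 29 for Cambridge low, beside 3.02%, 9 of 66 for France high, beside 8.48%, 5 of 9 for France low, beside 38.7%, 1 of 11 for Antigua high, beside 3.72%, and 0 of 4 for Glasgow low, beside 2.61%.

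Several of these neighbours belong to the gene family of the member. In Hikone, Jon25Bi averaged 10.85 ± 0.15 (SD, n = 2) in females and 11.27 ± 0.16 (n = 3) in males, next to Jon25Bii. At the second position from LManIII, 1 of 2 LManV probe sets averaged 10.48 ± 0.13 and 10.68 ± 0.25, with gaps of 1.85 and 0.87, whereas the other had gaps of -0.12 and -0.25 and the adjacent LManIV -0.10 and 0.37. Alp10, next to Alp9, was 1.22 and 0.67 above the nearest strain in Hikone. In Cambridge, CG8997 and CG7953, next to CG7916, were lower than the nearest strain by 1.497 and 0.89 in females and by 2.03 and 2.43 in males, and without Cambridge female replicate 3 the female gaps were 3.10 and 2.38. A second CG7953 probe set showed no such gap (-0.13 in females and -0.16 in males). In France, CG13795, next to CG13794, averaged 4.17 ± 0.14 in females and 5.64 ± 0.13 in males, 0.99 and 1.54 above the nearest strain. Whether probes of one copy also bound RNA of another was not tested.

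The difference between the sexes, averaged over the 5 strains, was the comparison that the rule did not use. By limma with Bonferroni adjustment over 13966 probe sets, 8 of the 51 members differed between males and females at an adjusted p below 0.01 (15.7%), beside 46.8% of all probe sets. Higher expression in males was called for 7 members (background 18.1%) and higher expression in females for 1 (background 28.8%). The calls were 3 of 21 in France high, 2 of 4 in Antigua high, 1 of 3 in France low, both single low members, and none in Hikone high and Cambridge low. A call depends on the spread of the replicates as well as on the size of the difference. Strn-Mlck, at 2.69 ± 0.58 (SE), was not called, whereas CG13794, at 0.69 ± 0.07, was. Males were higher in 38 of the 51 members, with a median difference of 0.61. Over all probe sets this was 4763 of 13966, with a median of -0.08. In 6 members (11.8%, beside 5.22% of all probe sets, each taken for its most extreme strain) the males and females of the strain set apart did not overlap, and those of another strain did not overlap the opposite way.

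CtsK2 showed the largest difference among the called members, at 3.91 ± 0.15 (SE) log2 units higher in males (adjusted p = 5.27e-13), and it was higher in males in 5 of 5 strains. The probe set 143096_f_at was 3.79 ± 0.49 higher in males (adjusted p = 0.00225), also in 5 of 5 strains, but without Hikone female replicate 1 or 2 the adjusted p was 0.0118 or 0.0121. CG14036 was 2.72 ± 0.10 lower in males (adjusted p = 3.86e-13), in 4 of 5 strains, with Glasgow the exception. The remaining called members were all higher in males. They were l(2)34Fc by 1.77 ± 0.21 (adjusted p = 7.5e-04), 1 of the 2 CG13947 probe sets by 1.52 ± 0.20 (adjusted p = 0.00209, and 0.0147 without Hikone female replicate 2), CG3857 by 1.35 ± 0.06 (adjusted p = 2.35e-12), fat-spondin by 1.13 ± 0.09 (adjusted p = 1.22e-06) and CG13794 by 0.69 ± 0.07 (adjusted p = 1.45e-05). The other CG13947 probe set, at 1.66 ± 0.29, was not called (adjusted p = 0.139). Males were higher in 5 of 5 strains for the first 3 of the called ones and in 4 of 5 for the last 2.

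None of the 8 Cambridge low genes passed this limma test, although all 8 were higher in males at an unadjusted p below 0.05 and 6 at a Benjamini-Hochberg adjusted p below 0.01. Such calls were common on the array. Of all 13966 probe sets, 3962 were higher in males and 8020 higher in females at the unadjusted limit. The Benjamini-Hochberg limit called 3632 and 7193. Without Cambridge female replicate 3, all 8 passed the Bonferroni threshold as higher in males. The members called higher in males numbered 17 in place of 7, beside 2615 in place of 2521 of all probe sets. For Mal-A1 the difference was then 2.70 (adjusted p = 1.02e-05), compared with 2.31 ± 0.46 (adjusted p = 0.926) with the array. None of the 13 Hikone high members passed, with 4 higher in males and 2 higher in females at an unadjusted p below 0.05, and 2 in each direction after Benjamini-Hochberg adjustment. Without Cambridge female replicate 3, Jon99Ci was called higher in males, by 2.64 (adjusted p = 3.94e-06). In the list of sugar digestion 7 of the 13 genes were called higher in males and 1 (Mal-A5) higher in females, with Mal-A4 at 3.01 ± 0.19 (adjusted p = 5.44e-09), whereas among the 28 gut serine proteases 1 gene (Ser7) was called higher in males and 1 (Ser12) higher in females. The Ser12 call rested on France, where males minus females was -4.36, compared with -0.21 to -0.09 in the other strains.

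**Figure D5:**
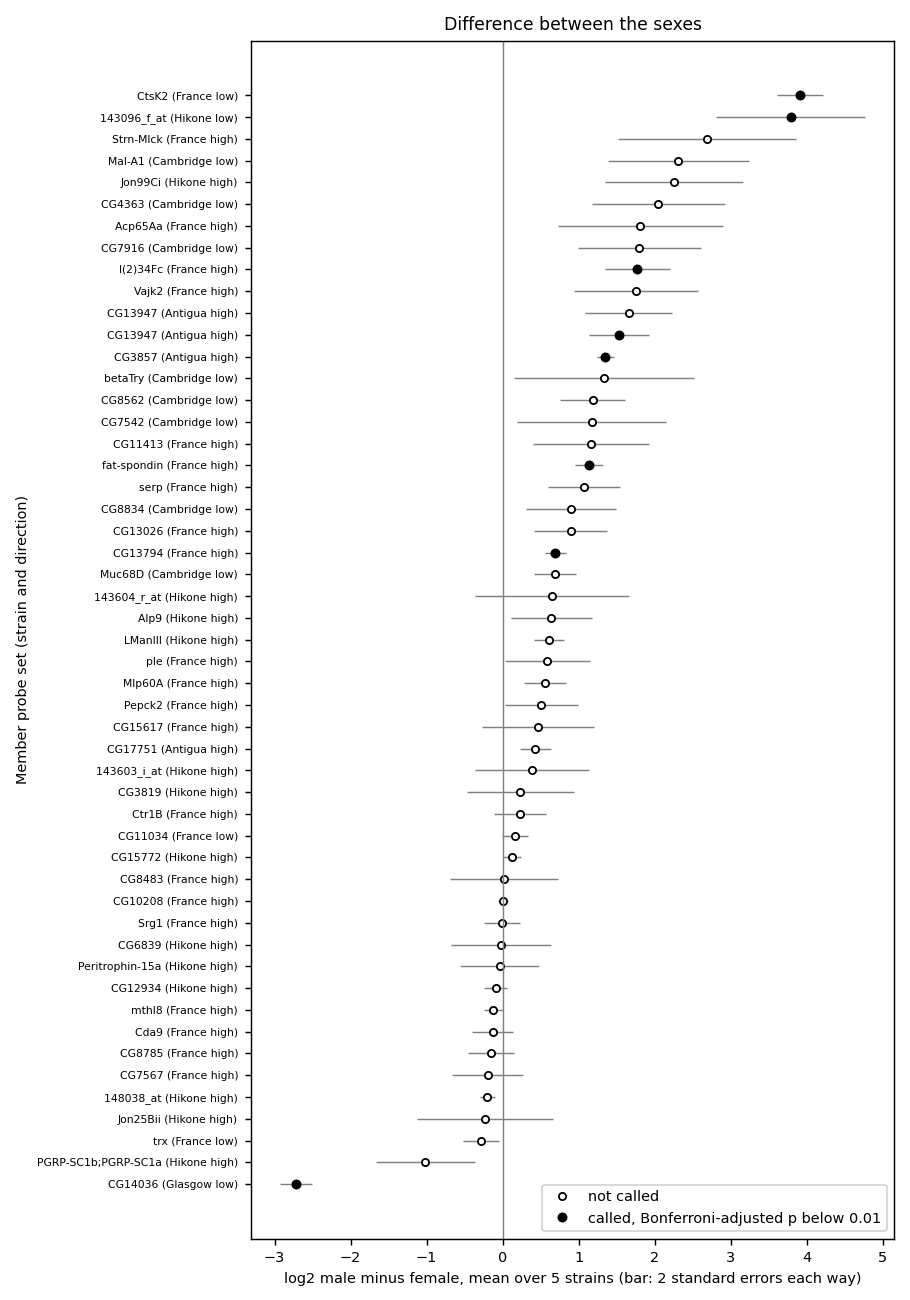
The log2 difference of males minus females, averaged over the 5 strains, is plotted for all 51 members with bars of 2 standard errors each way, and filled points have a Bonferroni-adjusted limma p below 0.01. CtsK2 lies at 3.91 and CG14036 at -2.72, while the 8 Cambridge low genes lie to the right of 0 as open points.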

How the data were processed

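The deposited table holds 1 column of log2 expression values for each of the 29 arrays. According to the methods of the study, the authors corrected the signals for probe GC content and then quantile-normalized the arrays (GCRMA; its version is not given in the sources used here). Gene names were taken from the platform annotation, where 12442 probe sets have 1 symbol, 327 several and 1197 none, and positions from the RefSeq table of Release 6, which matched all 46 members with 1 symbol. The 44 AFFX controls were left out.

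Means of the 10 groups were computed from the log2 values as deposited with pandas 2.3.3 in Python 3.11.15. A fold is 2 raised to a log2 difference. Strain differences were not tested, since the rule used them. The sexes were compared with limma 3.58.1 in R 4.3.3, fitting 10 group means to all 29 arrays with 1 shared spread and contrasting the mean of the 5 male groups with the mean of the 5 female groups, adjusted by Bonferroni and called below 0.01, after the design of the study. The procedure was checked on simulated data. Named genes were the 4 with the largest smaller gap per strain and direction, neighbouring members, members with a second member probe set, members of a list, the 3 with the largest called sex difference in each direction, and those beside the threshold, and other genes were chosen after their values were seen. Members and lists were chosen with earlier results of these data known. Acp65Aa was moved from the seminal fluid to the cuticle list because its letters, not its function, had matched the former. Replicate numbers were not used to pair the males and females of a strain in the main comparison of the sexes. Correlations of deviations between equal numbers ran from -0.06 to 0.43, with 6 of 14 pairs above 0.1. They were highest in Cambridge, at 0.43 for replicate 1 and 0.42 for replicate 3, so some pairing there is possible. For arrays the number per group limits the precision. Alternatives were other normalization, floors, thresholds, medians, a replicate block and leaving out single arrays, and those for the gene lists, the neighbours and both Cambridge arrays together were chosen after seeing the data. No sequences are given.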

Additional observations from a re-analysis of the deposited data

Results flagged for a closer look

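In 6 of the 51 members, the males and the females of the strain set apart did not overlap, and those of at least 1 other strain did not overlap in the opposite direction. This is 11.8% of the members, beside 5.22% of all probe sets, each taken for its most extreme strain. These differences between strains were not tested. CG14036 was higher in males by 1.01 in Glasgow and lower in males by 3.40 to 3.79 in the 4 other strains. CG15772 had a male minus female value of -1.35 in Hikone and of 0.31 to 0.59 in the 4 others. Srg1 was 0.74 higher in males in France, with male minus female values of -0.21 in Antigua and -0.85 in Cambridge (-0.46 without Cambridge female replicate 3). Its arrays read 2.03 to 2.44 in Antigua and 1.78 to 3.47 in Cambridge, near the floor of the array. Peritrophin-15a had a male minus female value of -0.72 in Hikone and 1.07 in Glasgow. LManIII was 1.05 higher in males in Hikone, with -0.11 in Cambridge, where its means of 4.15 and 4.04 were near the floor of the array. CG10208 had -0.36 in France and 0.29 in Antigua, where its arrays read 3.84 to 4.32, also near the floor.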

How the results depend on the processing

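Among the named genes, no gap and no called difference between the sexes reversed under the alternatives in which they were followed. Changes of sign in differences between the sexes that were not called were not counted. Centring each array on its median gave 55 members with all 51 kept, repeated quantile normalization 48 with 45 kept (Glasgow low 0, Hikone low 2, and 4 cuticle probe sets highest in France), values under 4 set to 4 gave 41 (Hikone low 0), group medians 72 with 45 kept (Cambridge low 29, Hikone low 2), and no symbol left out 58 (Glasgow low 2). A gap of 1 gave 125 (France high 61, Hikone high 24, Cambridge low 20, Hikone low 4, Glasgow low 2), and a gap of 2 gave 29 (Hikone high 6, Cambridge low 5, Antigua high 2, France low 1, Glasgow low 0). In the latter settings, the cause is the threshold itself. In the others the cause was not tested.

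Leaving out each array in turn gave 43 to 70 members and kept 33 of the 51 throughout. The ranges were 4 to 25 for Cambridge low, 17 to 25 for France high, 2 to 3 for France low, 0 to 1 for Glasgow low, 11 to 14 for Hikone high, 1 to 2 for Hikone low and 4 to 4 for Antigua high. They were 36 to 48 for members beyond all other arrays, 4 to 14 gut proteases lowest in Cambridge, 12 to 15 highest in Hikone, 4 to 10 sugar digestion genes lowest in Cambridge, 1 to 2 cuticle probe sets highest in France and 26 to 32 neighbours. Without Cambridge female replicate 3 and Cambridge male replicate 1 together, 65 members were found, 49 of them shared, and Cambridge low held 21.

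For the difference between the sexes, single arrays left out gave 6 to 17 members higher in males and 1 to 1 higher in females. Benjamini-Hochberg adjustment gave 24 and 3, beside 3632 and 7193 of all 13966 probe sets, and a threshold of 0.0001 gave 4 and 1. With a replicate block the members higher in males were 4, as CG13947, 143096_f_at and l(2)34Fc were no longer called (adjusted p = 0.134, 0.226 and 0.0141), although the numbers share nothing that the labels state. Centring on the median moved the median difference of all probe sets by -0.12 and the split of all calls from 2521 higher in males and 4018 higher in females to 2196 and 7885, while the members stayed at 7 and 1.

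Only 2 or 3 arrays stand behind each mean. Probe sets near the floor have compressed values, and 9 of the 38 high members had all other strain means under 4 in both sexes.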
